A study of Mus musculus with 4 samples.

Results

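Interferon-stimulated genes are the genes that a cell transcribes when it senses an interferon, and a list of 32 of them was followed in mouse back skin treated with retinoic acid and nicotinamide creams. The members were the array targets whose annotated gene name equals a listed symbol. Of the 32 genes, 31 had at least 1 target, 57 targets in all among 44170 on the array, and Usp18, which removes ISG15 from proteins, had 0 targets by name or gene ID. The skin came from male BALB/c mice aged 8 weeks that were treated 2 times a day for 5 days with a plain oil/water cream (Control), with 0.1% all-trans retinoic acid in a cream (ATRA), with that cream plus one of nicotinamide (ATRA+NIC), or only with the latter (NIC). Retinoic acid is a vitamin A derivative that acts through nuclear receptors, and nicotinamide is a form of vitamin B3. The strength of the nicotinamide cream is not stated, nor how many mice gave the RNA of an array. There is 1 array per group and therefore no replicate check of any difference, and having so few arrays limits the precision throughout.

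Type I interferons bind a receptor whose kinases activate a complex that includes STAT2 and IRF9. The complex binds a DNA element called the ISRE in the promoters of antiviral genes, while type II interferon acts on an element called GAS and through IRF1. The products block viral RNA and its translation, tag proteins with the ubiquitin-like ISG15, and prepare peptides for MHC class I. In skin, keratinocytes and resident immune cells keep a low level of this program running and raise it after infection or injury.

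Promoter sequences of 4 members are shown because both elements are short motifs that can be read by eye. The stretches lie directly upstream of the RefSeq transcription start on build GRCm38.p6, run 5′ to 3′ along the gene's strand, and have in capitals each match to the ISRE letters, which are GAAA, any 2 bases and GAAA again or, on the other strand, TTTC, any 2 bases and TTTC. These 4 were picked after the motif search, Isg15 and the IFIT genes for their several matches and differing readings, and B2m as a bright member with 1 match and similar readings. Isg15 (chr4:156200819-156200948, minus strand) has 3 matches that overlap, Ifit1 (chr19:34640759-34640888, plus strand) and Ifit3 (chr19:34583359-34583528, plus strand) have 2 each, and B2m (chr2:122147517-122147686, plus strand) has 1.
Isg15: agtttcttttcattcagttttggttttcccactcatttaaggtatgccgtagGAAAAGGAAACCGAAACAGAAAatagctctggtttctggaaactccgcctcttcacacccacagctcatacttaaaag
Ifit1: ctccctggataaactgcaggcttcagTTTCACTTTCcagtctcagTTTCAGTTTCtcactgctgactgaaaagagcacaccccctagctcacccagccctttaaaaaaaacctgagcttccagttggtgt
Ifit3: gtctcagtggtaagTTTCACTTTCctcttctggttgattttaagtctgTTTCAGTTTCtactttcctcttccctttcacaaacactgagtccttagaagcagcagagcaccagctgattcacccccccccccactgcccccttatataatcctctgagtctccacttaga
B2m: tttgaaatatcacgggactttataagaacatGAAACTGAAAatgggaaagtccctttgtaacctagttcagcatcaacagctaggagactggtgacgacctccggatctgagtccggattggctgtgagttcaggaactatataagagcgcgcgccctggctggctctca

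RefSeq promoter windows of 300 bases, 250 before and 50 after the start, matched 27 of the 31 measured members by symbol, with Oas2, Dhx58, Mx1 and Mx2 unmatched. An ISRE match stood in a window of 14 of the 27, and in 3.99% of 27025 gene symbols. The GAS letters TTCNNNGAA, the same on both strands, stood in windows of 7 of the 27, and in 9.55% of symbols. A match describes the letters and does not show binding.

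The readings are the authors' RMA intensities, and a gene's reading is the mean of its targets on the log2 scale. The 5000 random control probes read 34.2 in Control, 34.8 in ATRA, 36.3 in ATRA+NIC and 34.0 in NIC, and 58.7% to 60.2% of targets read at least 2 times that. The 26 members whose reading, averaged over the 4 arrays on the log2 scale, reached 2 times the random probes (69.6) were compared, beside 14334 gene names that passed the same filter. The other 5 members, Oas3, Ifih1, Mx1, Mx2 and Ifi44, are given as readings. The 9 keratinocyte markers read bright on all arrays, as did hair follicle, fibroblast and muscle markers, although the series title speaks of epidermis. Comparing bulk samples, fewer cells of a type and less RNA per cell cannot be told apart.

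The interferon-stimulated genes tended to read highest on the ATRA array and lowest on the NIC array, mostly by less than 2-fold. The median over the 26 members was 0.25 on the log2 scale in ATRA minus Control, -0.14 in NIC minus Control, -0.36 in ATRA+NIC minus ATRA, 0.07 in ATRA+NIC minus NIC and -0.07 in ATRA+NIC minus Control. Over the 14334 gene names the medians of the same comparisons were 0.06, 0.03, -0.03, -0.01 and 0.01. Over the 21 members at least 2 times the random probes on all 4 arrays the ATRA minus Control median was 0.11 and the NIC minus Control median -0.31. Over the 12305 gene names that pass this stricter filter these medians were 0.06 and 0.03. The ATRA array held the highest reading of 13 of the 26 members (50%), against 24.6% of all gene names. Of the 13, Eif2ak2 reached the filter only through its ATRA reading. Leaving out members that passed only through their highest array, a step added after seeing the data, it was 12 of 24. No like share of all gene names was computed. The NIC array held the lowest reading of 11 members (42.3%), against 27.7% of all gene names.

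**Figure D1:**
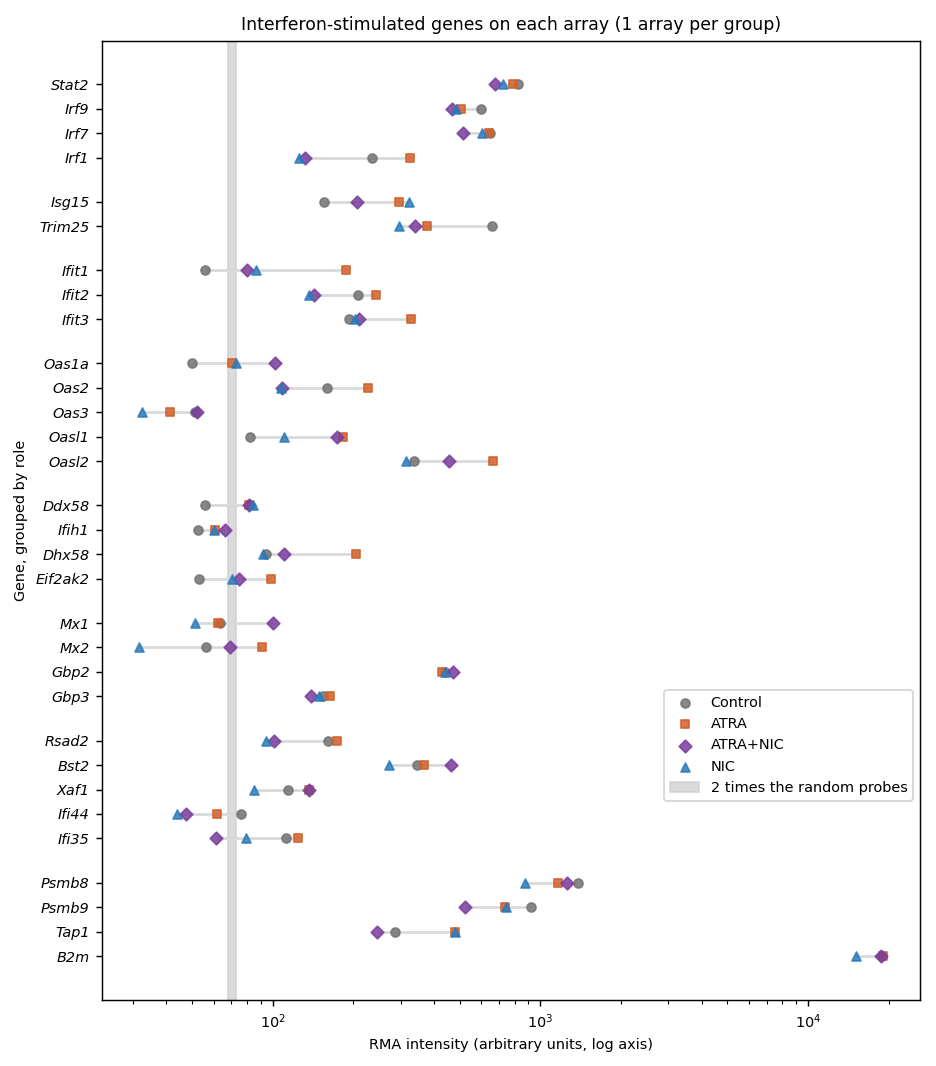
Readings of the 31 measured members (RMA intensity, log axis) on the Control, ATRA, ATRA+NIC and NIC arrays, 1 array per group, grouped by role, with a grey line joining the 4 readings of a gene and a grey band at 2 times the random probes. Stat2, Irf9, Irf7, Gbp2, Gbp3 and B2m have their points close together, while Ifit1, Dhx58 and Oasl2 have the ATRA point apart on the right.

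Members at least 2-fold apart were few in every comparison. In ATRA minus Control 3 of 26 were at least 2-fold higher, Ifit1, Oasl1 and Dhx58, against 2.93% of all gene names, and 0 were at least 2-fold lower, against 4.3%. Between ATRA+NIC and NIC 0 were higher and 0 lower, against 5.1% and 6.39%. In NIC minus Control 1 was higher, Isg15, and 1 lower, Trim25, against 4.01% and 4.07%. In ATRA+NIC minus ATRA 0 were higher, against 3.17%, and 4 were lower, Irf1, Ifit1, Oas2 and Ifi35, against 3.01%. Against Control, ATRA+NIC had 2 higher, Oas1a and Oasl1, against 3.96%, and 0 lower, against 5.71%. Oas1a reached the filter only through its ATRA+NIC reading, and without it 1 member was higher. ATRA minus Control and ATRA+NIC minus ATRA share the ATRA array with opposite sign, so a high reading on that array enters both.

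**Figure D2:**
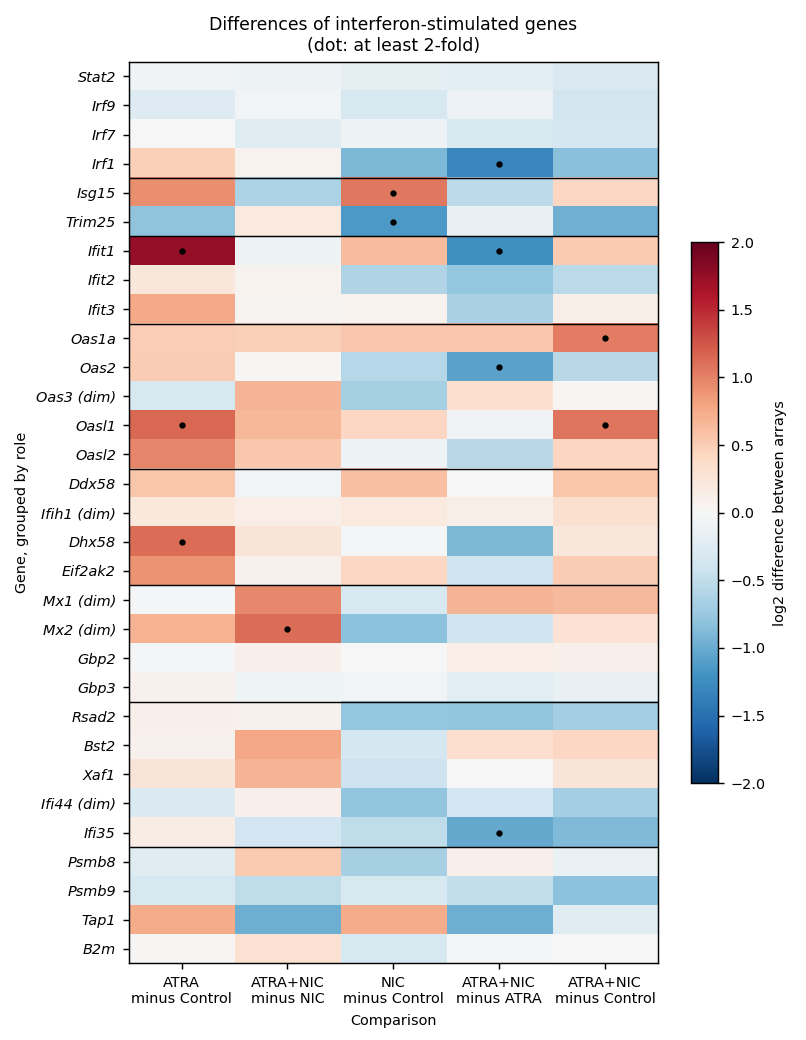
Log2 differences of the 31 measured members (rows, grouped by role, dim marking the 5 below the filter) in the 5 comparisons (columns), with red for higher, blue for lower and a dot where the difference is at least 2-fold. Ifit1 is the darkest red cell, at 1.76 in ATRA minus Control, and its row is near 0 in ATRA+NIC minus NIC.

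The signalling factors of the pathway stayed within a narrow range, apart from Irf1. Stat2, a subunit of the complex that binds the ISRE, read 827 in Control, 790 in ATRA, 676 in ATRA+NIC and 727 in NIC. Irf9, which gives that complex its DNA binding, read 601, 504, 465 and 482 in the same order. Irf7, which amplifies type I interferon production, read 648, 642, 514 and 605. Averaged over targets, all 3 were highest on Control and lowest on ATRA+NIC, and their spans over the arrays were 0.29, 0.37 and 0.33 on the log2 scale. Single targets differed: a target of Irf9 and a target of Irf7 were highest on ATRA, at 1187 and 749. The dimmest target of Irf9 was lowest on NIC, at 107.

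Irf1, a transcription factor of the type II response (chromosome 11, 53583579 to 53590825, build MM9), read 234 in Control, 325 in ATRA, 131 in ATRA+NIC and 125 in NIC. Both nicotinamide arrays were lower than both arrays without it, by -0.90 in NIC minus Control and by -1.31 in ATRA+NIC minus ATRA. The 3 targets of the gene did not move together. One target went from 496 on ATRA to 795 on ATRA+NIC, the next from 301 to 110 and the dimmest from 230 to 25.8, at the level of the random probes. With the brightest target alone the difference turned to 0.68.

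In the ISG15 system, ISG15 is the ubiquitin-like modifier and TRIM25 an enzyme that attaches ubiquitin or ISG15 and activates the RNA sensor RIG-I. Isg15 (chromosome 4, 155573574 to 155574894, build MM9) read 155 in Control, 295 in ATRA, 206 in ATRA+NIC and 322 in NIC. Each single cream was higher than Control, at 0.93 for ATRA and 1.05 for NIC, and the combined creams read lower than either, at -0.52 and -0.64. Both of its targets had these signs, and in NIC minus Control they gave 1.68 and 0.42. Trim25 (chromosome 11, 88860716 to 88874985, build MM9) went the other way, with 658 in Control, 377 in ATRA, 339 in ATRA+NIC and 296 in NIC. It was lower on all 3 treated arrays, at -0.80, -0.95 and -1.15, in both of its targets each time.

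The IFIT proteins bind viral RNA and block its translation, and all 3 genes had their highest reading on ATRA. Ifit1 (chromosome 19, 34715406 to 34724060, build MM9) read 55.7 in Control, 188 in ATRA, 80.3 in ATRA+NIC and 86.1 in NIC. The Control reading is under 2 times the random probes, so the size of its ATRA minus Control difference, 1.76, is limited by the background. Ifit2 read 207, 243, 143 and 136 in the same order. It was lower on both nicotinamide arrays, at -0.60 in NIC minus Control and -0.77 in ATRA+NIC minus ATRA. Ifit3 read 193, 328, 210 and 202. It stood at 0.77 for ATRA without nicotinamide and at 0.06 with it, so the ATRA array alone was apart. Each IFIT gene has 1 target of 3 probes, and these genes lie close together on chromosome 19.

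OAS enzymes make the short oligoadenylates that switch on RNase L, and OASL proteins are relatives that act on RNA sensing. Oasl1 (chromosome 5, 115373291 to 115387920, build MM9) read 82.3 in Control, 182 in ATRA, 174 in ATRA+NIC and 110 in NIC. Both ATRA arrays were above both arrays without ATRA, at 1.14 over Control for ATRA and 0.66 over NIC for ATRA+NIC. Its brighter target gave 0.57 and 1.39, and its dimmer target, which read 35.2 on Control, gave 1.72 and -0.07. Oasl2 read 336, 665, 454 and 314, again with both ATRA arrays on top, at 0.98 and 0.53.

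Among the enzymes of the family, Oas1a read 50.03 in Control, 70.4 in ATRA, 102 in ATRA+NIC and 73.0 in NIC. Its difference was 1.03 with both creams, with both targets higher, from a Control reading under 2 times the random probes. Oas2 read 159, 227, 108 and 107, lower on both nicotinamide arrays. Its ATRA+NIC minus ATRA difference of -1.06 came mostly from 1 of 3 targets, which gave -2.27, while the others gave -0.43 and -0.49. Oas3 read 32.4 to 52.1, under 2 times the random probes on every array. Probes for OAS genes may read near copies of the family, so single values are less certain.

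Of the 4 sensors of double-stranded RNA 3 passed the filter. Dhx58, which encodes LGP2, a regulator of the other sensors, read 94.1 in Control, 205 in ATRA, 110 in ATRA+NIC and 92.0 in NIC, with ATRA apart at 1.12. Its brighter target gave 0.48 and its dimmer target, 42.4 on Control, 1.77. The brighter target was highest on ATRA+NIC, at 406, while the dimmer target read 29.7 on ATRA+NIC and 30.5 on NIC. Ddx58, which encodes RIG-I, read 55.6, 81.4, 81.7 and 84.4, with Control lowest. Eif2ak2, which encodes the kinase PKR that stops translation, read 52.9, 98.7, 75.0 and 70.3, also lowest on Control and under 2 times the random probes there. Ifih1, the sensor MDA5, read 52.7 to 66.0 and did not pass the filter. Of its 3 targets 1 read 104, 143, 106 and 190 in the same order, at 0.87 in NIC minus Control, and the others read 27.7 to 54.5.

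Of the 4 antiviral GTPases, Mx1 and Mx2 did not pass the filter, and each was above 2 times the random probes on 1 array. Mx1, which traps viral nucleoproteins and is defective in many laboratory strains, read 63.6 in Control, 62.2 in ATRA, 99.7 in ATRA+NIC and 51.0 in NIC. The ATRA+NIC value came from 1 of its targets, which read 198 there while the other read 50.1. Mx2 read 56.3, 90.9, 68.9 and 31.7, below 2 times the random probes on 3 of 4 arrays, and stood at 1.12 in ATRA+NIC minus NIC. The guanylate-binding proteins Gbp2 and Gbp3, GTPases that attack membranes around intracellular microbes, read 430 to 471 and 139 to 163. Their spans of 0.13 and 0.23 on the log2 scale were the narrowest of the 26 members. These are means of targets, and the targets of Gbp3 gave 0.43 and -0.27 in ATRA minus Control.

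Of the other effectors, Rsad2, which encodes viperin, read 161 in Control, 174 in ATRA, 101 in ATRA+NIC and 94.6 in NIC. Its targets disagreed on nicotinamide, with -1.96 and 0.42 in NIC minus Control. Ifi35 read 112, 124, 61.3 and 79.4, so that its ATRA+NIC minus ATRA difference of -1.02 ends under 2 times the random probes. Bst2, the tether of budding virus called tetherin, read 346, 368, 462 and 271, and the pro-apoptotic Xaf1 read 114, 136, 136 and 85.3. Both were lowest on NIC, with 0.77 and 0.68 in ATRA+NIC minus NIC. Ifi44 read 43.9 to 75.8 and did not pass the filter.

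Genes of MHC class I antigen processing read bright and stayed less than 2-fold apart. B2m, the light chain of MHC class I, read 18833 in Control, 19104 in ATRA, 18690 in ATRA+NIC and 15127 in NIC, lowest on NIC by -0.32 against Control. Psmb9, an immunoproteasome subunit, read 925, 737, 524 and 744, below Control on all 3 treated arrays. Psmb8, another such subunit, read 1383, 1166, 1256 and 875, lowest on NIC. Tap1, a subunit of the peptide transporter, read 287, 480, 244 and 481, near 2-fold apart between single and combined creams. That pattern came mostly from a target at 50.9 to 156, while its bright target read 1491, 1477, 1171 and 1676.

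The ATRA difference can be read without and with nicotinamide from separate pairs of arrays. Of the 26 members 13 were above 0 in both (50%), against 29.4% of all gene names, and 4 were below 0 in both (15.4%), against 25.0%. The 13 were Irf1, Ifit2, Ifit3, Oas1a, Oas2, Oasl1, Oasl2, Dhx58, Eif2ak2, Rsad2, Bst2, Xaf1 and B2m, and 0 of them were at least 2-fold higher in both. Their signs are those of target means, and single targets can differ. For Rsad2 the brighter target was below 0 in both, at -0.43 and -0.20, and the dimmer target above, at 0.65 and 0.39. Targets of Bst2 gave 0.18, -0.47 and 0.56 in ATRA minus Control. Oas1a and Eif2ak2 reached the filter only through their highest array, ATRA+NIC and ATRA. Leaving them out, a step added after seeing the data, 11 of 24 members were above 0 in both and the ATRA minus Control median was 0.19. The 29.4% is over all gene names without that step, so it is not a like share. Several of the larger ATRA minus Control differences were smaller or of opposite sign with nicotinamide. They were picked as large on 1 pair of arrays, which by itself favours smaller values on another pair. The share of all gene names with the same pattern was not computed, and an effect of nicotinamide on the ATRA difference was not tested. Dhx58 stood at 1.12 and 0.26, and Isg15 at 0.93 and -0.64. The smaller value of Dhx58 came from its dimmer target, at 1.77 and -0.04, while its brighter target gave 0.48 and 0.55. The median of the difference between both ATRA differences was -0.20 over the members and -0.07 over all gene names.

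Nicotinamide was likewise read in both backgrounds, as NIC minus Control and ATRA+NIC minus ATRA. Below 0 in both were 14 of the 26 members (53.8%), against 25.1% of all gene names, and 2, Oas1a and Ddx58, were above 0 in both, against 24.7%. The 14 were Stat2, Irf9, Irf7, Irf1, Trim25, Ifit2, Oas2, Oasl2, Dhx58, Gbp3, Rsad2, Ifi35, Psmb9 and B2m. The signs are those of target means, and single targets can differ. For Dhx58 the brighter target was above 0 in both, at 0.41 and 0.48, and the dimmer target below, at -0.48 and -2.28. None of the 14 was at least 2-fold lower in both, and Irf1 (-0.90 and -1.31), Rsad2 (-0.77 and -0.78), Ifit2 (-0.60 and -0.77) and Oas2 (-0.57 and -1.06) came nearest.

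**Figure D3:**
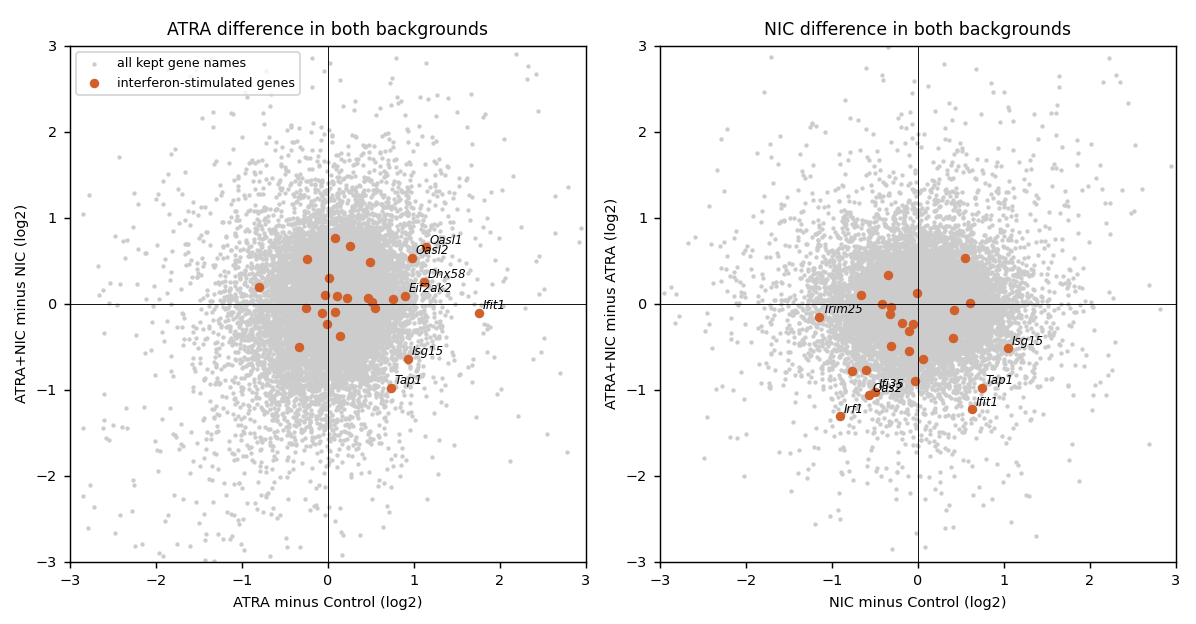
Log2 differences for ATRA (left, without nicotinamide on the x axis and with it on the y axis) and for nicotinamide (right, without ATRA on the x axis and with it on the y axis) of the 26 compared members (orange) and of all kept gene names (grey, without the 168 and 42 beyond 3 on either axis). On the left Oasl1 and Oasl2 lie to the upper right while Ifit1 lies on the zero line of the y axis, and on the right Irf1, Oas2 and Rsad2 lie to the lower left.

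A limma model with additive ATRA and NIC terms over all 4 arrays leaves 1 residual degree of freedom, and that degree of freedom is the interaction. Its p-values are therefore void wherever the agents do not act additively. For ATRA 0 of the 26 members rose and 0 fell at a Benjamini-Hochberg adjusted p under 0.05, against 0.153% and 0.984% of all gene names, and for NIC 0 rose and 0 fell, as of all gene names (0% and 0%). At an unadjusted p under 0.05 there were 2 members above 0 with ATRA, where 4.14% of all gene names lay, and 0 below 0, where 4.89% lay. With NIC there were 0 above 0, against 2.71%, and 5 below 0, against 2.73%. Oasl1 was at 0.90 with ATRA (SE 0.30, limma adjusted p = 0.396) and Oasl2 at 0.76 (SE 0.30, limma adjusted p = 0.518). Irf1 was at -1.11 with NIC (SE 0.30, limma adjusted p = 0.602), and the other 4 were Ifit2, Oas2, Rsad2 and Ifi35 with estimates from -0.69 to -0.82. Under 12 other settings of this fit 0 members passed as well.

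Several targets of a gene gave a check within an array. Of the 26 members 17 have over 1 target, and for ATRA minus Control all targets of a gene had the same sign in 6 of the 17 (35.3%), against 42.0% of 7164 gene names with several targets. For ATRA+NIC minus ATRA this held for 6 of 17 (35.3%), against 39.6%, and for NIC minus Control for 11 of 17 (64.7%), against 42.3%. The median distance between the lowest and highest target of a member was 1.03 on the log2 scale in ATRA minus Control, against 0.67 over all such gene names, and is larger than the median difference of the members, 0.25.

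**Figure D4:**
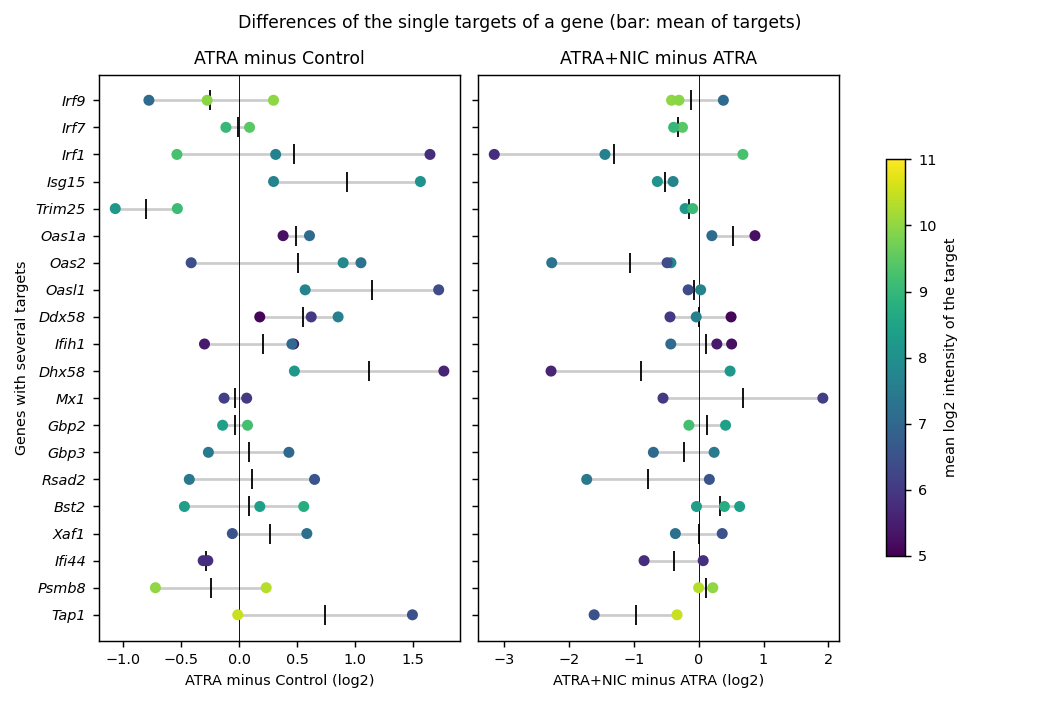
Log2 differences of the single targets of the 20 members with several targets, in ATRA minus Control (left) and ATRA+NIC minus ATRA (right), with colour for the target's mean log2 intensity and a black bar for the gene's mean. Trim25, Oas1a and Isg15 have their targets on one side of 0 in both panels, while the targets of Irf1 run from -3.16 to 0.68 on the right.

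The rest of the interferon pathway was read from lists of its other genes. Of 16 measured interferon genes, the ligands, 8 were under 2 times the random probes on every array, among them Ifng, Ifnk and Ifne, and 2 passed the filter. Ifnb1, the type I interferon that infected cells make first, read 18.7 in Control, 145 in ATRA, 35.0 in ATRA+NIC and 42.0 in NIC from 1 target. It did not pass the filter and reached 2 times the random probes on the ATRA array only. Other dim ligands also did so on a single array, Ifna5 and Ifna7 on ATRA at 104 and 112, and Ifnab on ATRA+NIC at 74.5. Ifna13 read 317, 368, 298 and 174, and since alpha interferon genes are near copies, its probes may read others. Receptors and their kinases and STATs were present, with all 11 at least 2 times the random probes on every array. Of these 0 were at least 2-fold higher in any comparison, where 2.93% to 5.1% of all gene names were. In ATRA minus Control 1 was lower, Il28ra, the receptor of lambda interferons, at -1.01, where 4.3% of all gene names were. Stat3, the brightest of them and a transducer of cytokine signals, read 3858 to 7385.

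Of 12 kept genes of nucleic acid sensing, 0 were at least 2-fold apart in ATRA minus Control or NIC minus Control, with medians of 0.33 and 0.04. Of all gene names 2.93% were higher and 4.3% lower in the first, and 4.01% and 4.07% in the second. Myd88, the adaptor of Toll-like receptors, read 2261 in Control, 3225 in ATRA, 3229 in ATRA+NIC and 1551 in NIC. It was higher on both ATRA arrays, at 0.51 and 1.06. Irf3, the factor that first induces Ifnb1, stood at -1.24 in ATRA+NIC minus NIC, from 158 on NIC to 67.1 on ATRA+NIC, which is under 2 times the random probes. Of 10 negative regulators, Socs3, an inhibitor of JAK kinases, stood at 1.16 in ATRA+NIC minus Control and Adar, an RNA editing enzyme that dampens sensing, at 1.09 in ATRA+NIC minus NIC. Socs1, the main inhibitor of interferon signalling, read 60.9 to 95.3.

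A further 45 interferon targets outside the 32 had medians of 0.06 in ATRA minus Control, 0.24 in ATRA+NIC minus NIC, -0.21 in NIC minus Control and -0.09 in ATRA+NIC minus ATRA. In ATRA minus Control 3 of them were at least 2-fold higher, Ifitm1, Samd9l and Phf11, where 2.93% of all gene names were, and 1 lower, Nlrc5, where 4.3% were. Ly6e, the brightest of them, read 9145 to 12886. Ifitm1, a membrane protein that blocks virus entry, read 241 in Control, 506 in ATRA, 353 in ATRA+NIC and 163 in NIC, at 1.07 and 1.12 for ATRA in both backgrounds. Phf11 stood at 1.09 and 1.15, from readings under 2 times the random probes without ATRA. Nlrc5, the transactivator of MHC class I genes, read 216, 60.9, 84.3 and 84.3, lower on all 3 treated arrays. The chemokine genes Cxcl10 and Cxcl9 read 193 to 260 and 57.4 to 119, and Cmpk2, a mitochondrial nucleotide kinase, stood at 1.42 in NIC minus Control from 48.3 and at -1.36 in ATRA+NIC minus NIC. Ccl5, a chemokine of T cells, read 131, 122, 112 and 243, highest on NIC, and stood at -1.12 in ATRA+NIC minus NIC. With both creams, against Control, Trim30 and Phf11 were at least 2-fold higher, at 1.07 and 1.65, and Cxcl9 and Nlrc5 lower, at -1.05 and -1.36. That was 2 of 45 each way, where 3.96% of all gene names were higher and 5.71% lower.

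Markers of other cells differed between the same arrays. The summed reading of 10 macrophage and dendritic cell markers was 20550 in Control, 26048 in ATRA, 18385 in ATRA+NIC and 13702 in NIC, with the highest array ATRA and the lowest NIC, as for many members. Of the 9 that passed the filter 7 were above 0 in ATRA minus Control and 7 below 0 in NIC minus Control. Of all gene names 55.2% were above 0 in the first comparison and 53.0% in the second. C1qc read 7840, 12385, 6138 and 4690, while C1qa read 5485, 5124, 3990 and 2538, highest on Control. Cd207 went the other way, at -1.24 in ATRA minus Control and 0.69 in NIC minus Control. Cd68 and Cd14 were highest on ATRA+NIC. The 7 markers of plasmacytoid dendritic cells, a source of type I interferon, summed to 506 to 602, and Siglech, their defining gene, was under 2 times the random probes on every array. T and NK cell markers summed to 1141 to 1493 on 3 arrays and to 3446 on NIC, where Prf1 alone read 2419. Neutrophil markers summed to 15413 in Control, 53960 in ATRA, 52802 in ATRA+NIC and 5412 in NIC. The sum was made mostly of S100a8 and S100a9, which keratinocytes also express. Of the 5 neutrophil markers that passed the filter 4 had ATRA minus Control at 2-fold or more, against 2.93% of all gene names. Ly6g, their defining gene, read 47.1 to 76.6. Endothelial markers summed to 2150, 2725, 2460 and 1687 in the same order, again highest on ATRA and lowest on NIC. Pecam1 and Cdh5 had that order, but of the 4 that passed the filter only 2 were above 0 in ATRA minus Control. Kdr stood at -1.08 there, Tek at -0.10 and Vwf, which did not pass, at -1.09. Melanocyte markers summed to 3992, 1900, 1453 and 9631, and all 4 were at least 2-fold higher in NIC minus Control, against 4.01% of all gene names. Hair follicle markers summed to 89636, 20960, 25267 and 126995. The part of these cells in the readings of the interferon-stimulated genes was not tested.

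Promoter matches were set beside the values as a description. The 12 compared members with an ISRE match had a median of 0.30 in ATRA minus Control and 0.03 in NIC minus Control, and the 12 with a window and no match had 0.19 and -0.37. The 6 members with more than 1 match did not read alike. For ATRA minus Control, Ifit1, Isg15 and Ifit3 stood at 1.76, 0.93 and 0.77, while Oas1a, Bst2 and Gbp3 stood at 0.49, 0.09 and 0.08.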

How the data were processed

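RNA of mouse skin was hybridised after Cy3 labelling to NimbleGen 1-colour arrays. The 4 groups have 1 array each and were taken from the treatment named in the labels. The authors deposited linear intensity values for each target, called RMA per the file headers and names, with 3 probes for 44155 of 44170 targets. Software is not given in the sources used here. A deposited value table holds the same intensities for 24323 targets, all at 50 or above on every array. The 4 columns of a workbook, which carry no group names, and 4 columns of standard errors were not used here.

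The log2 of each intensity was used without renormalizing, and targets of a gene name were averaged. Gene names were kept when their mean log2 value over the 4 arrays reached that of 2 times the random probes. This filter was settled after member values had been seen: a first look kept names at or above the array medians on average, which left out Ifit1, and a filter on at least 1 array keeps genes through the array where they are high. Both are given as alternatives chosen after seeing the data. Differences were described with counts at least 2-fold apart. limma 3.58.1 in R 4.3.3 fitted ATRA and NIC additively over all kept names with Benjamini-Hochberg adjustment. On simulated data with 14334 names, 100 changed by 2 log2 units with ATRA and 100 by 4, it called 96 and 100 of them and 9 of the others. The simulated noise was of equal size for all names, with no interaction. Its changes were larger than the largest difference of a member, 1.76, so it does not show what the fit can find among the members. Pathway and marker lists were matched by name or gene ID. Named genes were all members, in full where at least 2-fold apart or brightest of their role, and, from each pathway list, genes at least 2-fold apart in a comparison or brightest. Ifnb1, Socs1, Cxcl10, Cxcl9, the dim ligands and the marker genes were named after their values were seen. The members and lists were chosen with earlier results of these data known. Alternatives changed the normalization, the filter, a floor, the choice of target, the source, the symbols, the fold and the variance prior.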

Additional observations from a re-analysis of the deposited data

Results flagged for a closer look

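In 2 genes an agent's difference was at least 2-fold in one background and had the opposite sign in the other. The share of all gene names that met this rule was not computed, so the count is not read as a trait of the members. Ifit1 stood at 1.76 in ATRA minus Control and at -0.10 in ATRA+NIC minus NIC, and at 0.63 in NIC minus Control and -1.23 in ATRA+NIC minus ATRA. Isg15 stood at 1.05 in NIC minus Control and at -0.52 in ATRA+NIC minus ATRA. With 1 array per group the difference between backgrounds was not tested.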

How the results depend on the processing

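With 1 array per group no array can be left out, and no paired analysis was possible because no group has a second array. Counts of members at least 2-fold apart are small and moved with the settings. In ATRA minus Control 1 member was higher with a floor of 2 times the random probes and 1 with the deposited value table, in place of 3. Of all gene names 2.41% and 2.95% were higher under these settings. In ATRA+NIC minus ATRA 2 were lower, in place of 4, with cyclic loess, with 2 times the random probes on all 4 arrays, with that floor, and with the mean at or above the array medians, a filter chosen after seeing the data. The share of all gene names lower was not computed under these settings. In ATRA+NIC minus Control the 2 higher members became 1 with 2 times the random probes on all 4 arrays and with both filters on array medians, chosen after seeing the data, and 0 with the floor, the brightest target or the value table, while the brightest target gave 1 lower. In ATRA+NIC minus NIC the count of 0 higher became 1 with no filter, 2 with the brightest target and 1 with the value table, where 7.17%, 6.59% and 4.71% of all gene names were. At 1.5-fold 8 members were higher and 1 lower for ATRA minus Control (11.8% and 10.9% of all gene names), 3 and 2 for ATRA+NIC minus NIC (14.6% and 15.1%), and 4 and 5 for NIC minus Control (13.4% and 12.4%). At that fold 9 were lower in ATRA+NIC minus ATRA (10.4%) and 5 in ATRA+NIC minus Control (13.6%). The median of ATRA+NIC minus Control, -0.07, turned to 0.024 with no filter and 0.12 with the brightest target, and moved to -0.15 with 3 filters and -0.01 with the value table. The other medians kept their sign under all settings run but changed in size: ATRA minus Control from 0.25 to 0.11 with 2 times the random probes on all 4 arrays and with the mean at or above the array medians, and to 0.15 with the array median on at least 1 array, NIC minus Control from -0.14 to -0.31 with no filter and 3 other filters to -0.23 with loess and to -0.09 with the brightest target, ATRA+NIC minus NIC from 0.07 to 0.13 with loess, and the difference between both ATRA differences from -0.20 to -0.09 with loess. Irf1 in ATRA+NIC minus ATRA reversed to 0.68 with its brightest target. The values of Dhx58, Oasl1 and Oas1a at least 2-fold apart dropped under 2-fold with the brightest target, with the floor and with the value table. Under at least 1 setting each, Ifi35, Irf1, Oas2 and Trim25 dropped under 2-fold as well, with values such as -0.98 for Ifi35 with loess, -0.43 for Oas2 and -0.70 for Trim25 with the brightest target, and -0.38 for Irf1 in the value table. Except where a gene's own targets are named, the cause was not tested. Signal over background limits dim genes, and 5 of 31 members lay under the filter.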
